A study of Homo sapiens with 6 samples.

Results

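TPX2, PRC1, ANLN, ECT2, HMMR, ASPM, NUSAP1, RACGAP1, TOP2A and MKI67 encode proteins that build the mitotic spindle, carry out cytokinesis or serve as markers of dividing cells. They were taken by gene symbol from the deposited expression table, where each of the 10 symbols had 1 row among 58735 genes. The RNA came from MDA-MB-231, a human breast adenocarcinoma cell line of basal-like, mesenchymal character. The sample names carry SCR for the non-targeting shRNA (shSCR) that the cells of both groups hold, while the genotype is labelled WT. A group of 3 libraries came from cells at 0 Gy and another of 3 from cells 24 h after 10 Gy from a caesium source. Nothing in the labels says that replicates were separate cultures, so p-values measure only the spread between these libraries. Whether the shSCR line is a single clone is not given in the sources used here.

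Some of these proteins act on spindle microtubules or chromosomes early in mitosis, and the rest act from anaphase onward. TPX2 activates Aurora A and nucleates microtubules, HMMR and ASPM work at spindle poles, and NUSAP1 bundles microtubules near chromatin. At anaphase, PRC1 cross-links the antiparallel microtubules of the midzone, and RACGAP1, a subunit of centralspindlin, recruits the RhoA activator ECT2. Anillin (ANLN) then links RhoA, actin, myosin and septins in the contractile ring. TOP2A decatenates sister chromatids, and Ki-67 (MKI67) coats mitotic chromosomes and is the common histological proliferation marker. Transcripts of such genes accumulate from S phase to mitosis and drop in resting cells, so that a bulk level depends on how many cells are in each phase. Fewer cells of a phase and less RNA per cell cannot be told apart in these libraries.

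At 24 h after 10 Gy, 6 of the 10 genes were higher than at 0 Gy (ASPM, HMMR, TOP2A, ANLN, RACGAP1 and TPX2) and none was lower. ASPM and HMMR reached 1.58 and 1.69 times their 0 Gy levels in FPKM, and the other 4 between 1.11 and 1.19 times. ECT2, NUSAP1 and MKI67 did not pass the test, and PRC1 was too low to be tested. Of all 12128 genes tested, 11.9% were called higher and 23.7% lower, and the members' 6 of 9 tested stand beside those shares. Under TPM scaling 8 members were called higher, while 25.7% of all genes tested were higher and 1066 genes were lower. As deposited, all 10 Gy libraries lay above all 0 Gy libraries for the 6 genes named above, against 19.1% of all genes tested.

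The promoters found for 8 of these genes share sequence features that the choice of genes did not use. Many late cell cycle promoters carry a cell cycle homology region (CHR) with the letters TTTGAA, which the DREAM and MuvB complexes bind, and CCAAT boxes, bound by NF-Y. Windows of 300 bases from RefSeq (GRCh38.p14), reaching from 250 bases before the start site to 50 bases from it onward, were found for 8 of the 10 genes. No window was found for TPX2 or RACGAP1, which were both called higher. ECT2 had windows at 2 start sites, giving 9 windows. The ECT2 windows overlap and share a TTTGAA match, though each also has a match of its own. TTTGAA stood on either strand in 9 of 9 windows, against 15.2% of all 35116 windows and 10.3% of the 12528 windows of genes tested. The only match of NUSAP1 lay after its start site. CCAAT on either strand stood in 7 of 9, against 34.6% of all windows and 35.0% of those of genes tested. The windows without it were those of ANLN and the downstream start of ECT2. Both motifs together stood in 7 of 9 windows, against 5.90% of all windows. A match is a description of letters and not a measured binding site.

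The 200 bases before the start sites of HMMR and ASPM, with the largest changes, of ANLN, with no CCAAT, and of MKI67, with no called change, are printed here for comparison. They lie on GRCh38.p14 at chr5:163460432-163460631 (plus strand), chr1:197146670-197146869 (minus strand), chr7:36389662-36389861 (plus strand) and chr10:128126424-128126623 (minus strand). Each is written 5′ to 3′ on the strand of its gene, and capitals mark TTTGAA and CCAAT on either strand.
HMMR: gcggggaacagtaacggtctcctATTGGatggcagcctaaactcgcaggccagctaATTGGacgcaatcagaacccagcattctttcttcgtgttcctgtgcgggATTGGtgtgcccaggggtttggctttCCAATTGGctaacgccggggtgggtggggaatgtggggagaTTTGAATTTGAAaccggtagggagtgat
ASPM: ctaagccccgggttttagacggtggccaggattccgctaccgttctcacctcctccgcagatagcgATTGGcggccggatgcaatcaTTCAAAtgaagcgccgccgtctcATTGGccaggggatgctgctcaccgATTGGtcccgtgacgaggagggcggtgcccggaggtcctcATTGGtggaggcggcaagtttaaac
ANLN: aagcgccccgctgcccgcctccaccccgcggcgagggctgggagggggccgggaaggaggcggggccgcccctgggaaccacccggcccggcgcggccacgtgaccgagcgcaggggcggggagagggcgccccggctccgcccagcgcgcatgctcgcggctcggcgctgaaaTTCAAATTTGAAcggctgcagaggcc
MKI67: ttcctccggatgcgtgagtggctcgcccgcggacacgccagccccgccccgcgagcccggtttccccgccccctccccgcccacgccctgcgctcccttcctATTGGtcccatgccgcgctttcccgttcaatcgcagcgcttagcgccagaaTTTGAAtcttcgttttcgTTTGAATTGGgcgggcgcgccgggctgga
HMMR holds a direct repeat of TTTGAA that begins 28 and 22 bases before the start, and ANLN an inverted pair that begins 26 and 20 bases before it. MKI67 also has 2 matches, at 47 and 29 bases, and the latter overlaps a reversed CCAAT by 1 base. ASPM has 1 TTTGAA match, reversed, at 113 bases, among 4 reversed CCAAT boxes. HMMR has 5 CCAAT matches, of which a forward and a reversed one overlap. MKI67, without a called change, thus holds both motifs, as HMMR and ASPM do.

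**Figure D1:**
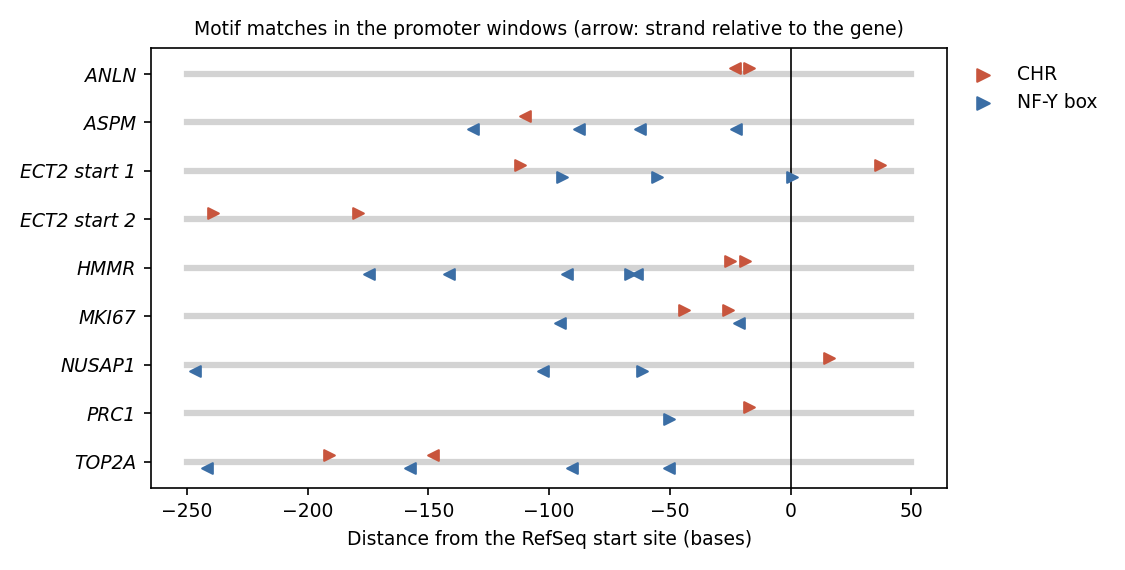
Matches of TTTGAA (CHR, red) and CCAAT (NF-Y box, blue) in RefSeq promoter windows of 8 genes, by distance in bases from the start site, with arrows for the strand relative to the gene. All 9 windows hold a CHR match, and 7 of 9 also hold an NF-Y box.

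At 0 Gy the genes spanned a wide range of levels. FPKM is scaled to gene length, so that levels can be compared between genes. TPX2 was the highest with 151 ± 2.47 FPKM (SD, n = 3), above 99.0% of protein-coding genes. TOP2A followed with 125 ± 5.15 FPKM, then ANLN (64.4 ± 1.47), MKI67 (57.1 ± 6.79), RACGAP1 (52.3 ± 0.333) and ECT2 (44.4 ± 2.19), with SD over n = 3 for each. ASPM was at 21.1 ± 2.12 FPKM, NUSAP1 at 8.14 ± 0.193, HMMR at 2.74 ± 0.0396 and PRC1 at 0.446 ± 0.0633 (SD, n = 3 each). Among neighbours in this order, only MKI67 and RACGAP1 had 0 Gy ranges that overlapped. Summed over the 10 genes, the level was 511.5, 543.2 and 525.2 FPKM in the 0 Gy libraries and 601.9, 606.3 and 592.6 FPKM in the 10 Gy libraries. All 3 irradiated sums lay above the 3 control sums.

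**Figure D2:**
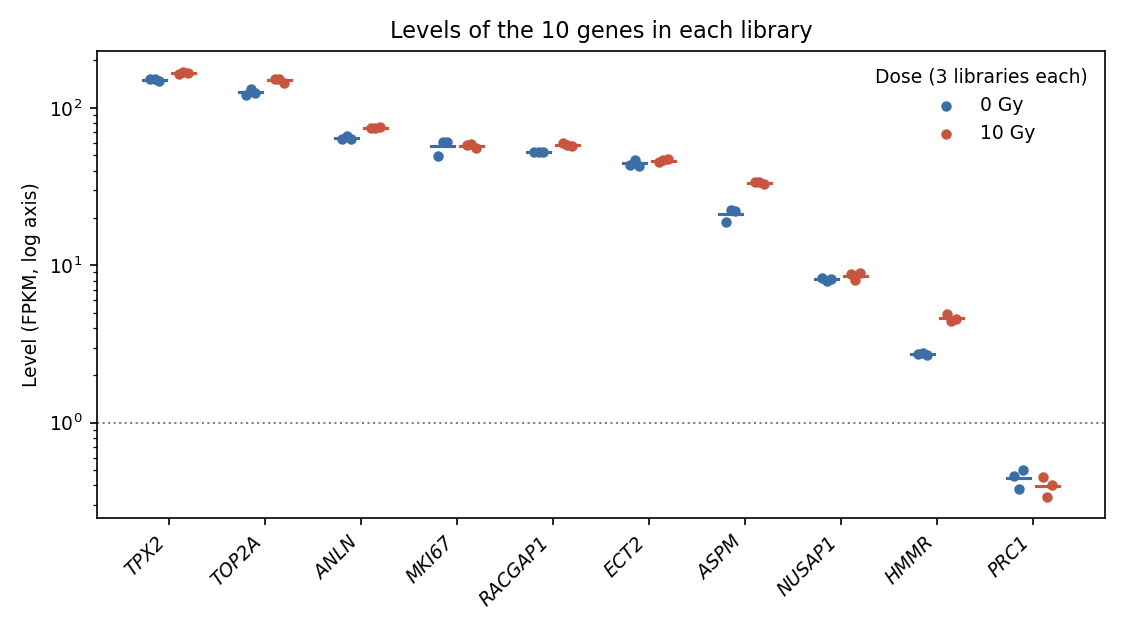
Level of each gene in each library in FPKM on a log axis, with a bar at the mean of each group of 3 libraries and a dotted line at the minimum of 1 FPKM for testing. The 10 Gy points of HMMR (4.43 to 4.89) and ASPM (32.9 to 33.8) lie clear of their 0 Gy points, while PRC1 lies below the dotted line.

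ASPM, which focuses microtubule minus ends at spindle poles, lies on chr1:197084128-197146694 of GRCh38. Its levels were 18.7, 22.4 and 22.2 FPKM at 0 Gy and 33.6, 33.8 and 32.9 FPKM at 10 Gy. The groups did not overlap, and control replicate 1 was the lowest library. The change was 0.64 on the log2(FPKM + 1) scale (SE 0.0669, limma adjusted p = 9.64e-04), a change higher than that of 99.2% of genes tested. HMMR, a microtubule-associated protein that helps TPX2 to activate Aurora A, lies on chr5:163460203-163491945. At 2.74, 2.78 and 2.70 FPKM at 0 Gy and 4.89, 4.43 and 4.58 FPKM at 10 Gy, it was low but separated by dose in every library. These values rest on 168 to 230 reads per library at 0 Gy and 318 to 575 at 10 Gy. Its log2 change was 0.59 (SE 0.0487, adjusted p = 5.93e-04).

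TPX2, on chr20:31739271-31801805, was at 152, 153 and 148 FPKM at 0 Gy and at 164, 169 and 167 FPKM at 10 Gy. The groups did not overlap, but the step between them was small as deposited, with a log2 change of 0.14 (SE 0.0311, adjusted p = 0.0119). That change was 0.23 under upper quartile scaling, 0.27 under TPM scaling and 0.22 in voom. Without 10 Gy replicate 2 the change was still 0.14, but the adjusted p was 0.0581 and the call was lost. Without 10 Gy replicate 1 or 3 the adjusted p was 0.0409 or 0.0466, also near the threshold. Over all genes tested, 852 were higher without 10 Gy replicate 2, against 1443 with all libraries. NUSAP1, on chr15:41332694-41381050, was at 8.27, 7.92 and 8.24 FPKM at 0 Gy and at 8.82, 8.02 and 8.98 FPKM at 10 Gy. Its groups overlapped through 10 Gy replicate 2. The log2 change was 0.07 (95% interval -0.04 to 0.18, adjusted p = 0.285), with 0.11 when 10 Gy replicate 2 was left out (adjusted p = 0.102) and 0.04 when 10 Gy replicate 3 was (adjusted p = 0.587).

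Of the genes of the midzone and the contractile ring, ANLN and RACGAP1 rose. ANLN, on chr7:36389806-36453791, was at 63.7, 66.1 and 63.4 FPKM at 0 Gy and at 74.8, 75.0 and 75.1 FPKM at 10 Gy. The irradiated libraries were nearly equal and all above the controls, with a log2 change of 0.22 (SE 0.0293, adjusted p = 0.00227). RACGAP1, on chr12:49976923-50033136, was at 52.1, 52.1 and 52.7 FPKM at 0 Gy and at 59.8, 57.9 and 57.5 FPKM at 10 Gy. Its groups did not overlap, and the log2 change was 0.16 (SE 0.0289, adjusted p = 0.00672). ECT2, on chr3:172750682-172821474, was at 43.6, 46.8 and 42.7 FPKM at 0 Gy and at 45.2, 46.5 and 47.0 FPKM at 10 Gy. Control replicate 2 lay within the irradiated range, and the log2 change was 0.06 (95% interval -0.04 to 0.15, adjusted p = 0.291). It was 0.10 without 0 Gy replicate 2 (adjusted p = 0.0688) and 0.03 without 0 Gy replicate 3 (adjusted p = 0.599). ECT2 and NUSAP1 were called higher under upper quartile and TPM scaling, by 0.15 and 0.19 for ECT2 and by 0.15 and 0.20 for NUSAP1.

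PRC1, the microtubule cross-linker of the midzone, is listed on chr15:90966038-90995629. Its levels were 0.458, 0.377 and 0.501 FPKM at 0 Gy and 0.454, 0.337 and 0.401 FPKM at 10 Gy, from 32 to 75 reads per library. The groups overlapped, and the mean lay under the minimum of 1 FPKM. Of its 5525 exonic bases in GENCODE 29, 57.6% are also exonic in AC068831.7, a longer protein-coding gene on the same strand, which itself was at 0.546 to 0.918 FPKM. For NUSAP1 the share was 62.2%, with AC087721.2, which is listed at 0 in every library. No other member shared exonic bases with a gene on its own strand. How reads in shared exons were counted is not given in the sources used here, and the part of this overlap in the low levels of PRC1 and NUSAP1 was not tested. Both levels are therefore uncertain, as is their order among the 10 genes.

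TOP2A, the type II topoisomerase of dividing cells, lies on chr17:40388516-40417950. It was at 121, 131 and 124 FPKM at 0 Gy and at 152, 153 and 144 FPKM at 10 Gy. The groups did not overlap, and the log2 change was 0.25 (SE 0.0426, adjusted p = 0.00466). MKI67, on chr10:128096659-128126385, was at 49.2, 61.0 and 61.0 FPKM at 0 Gy and at 58.3, 58.9 and 55.2 FPKM at 10 Gy. Control replicate 1 was the lowest of the 6 libraries and the other controls were the highest. The log2 change was 0.02 (95% interval -0.18 to 0.21, adjusted p = 0.898), the widest interval of the 9 genes tested. Without control replicate 1 it was -0.09 (adjusted p = 0.102).

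**Figure D3:**
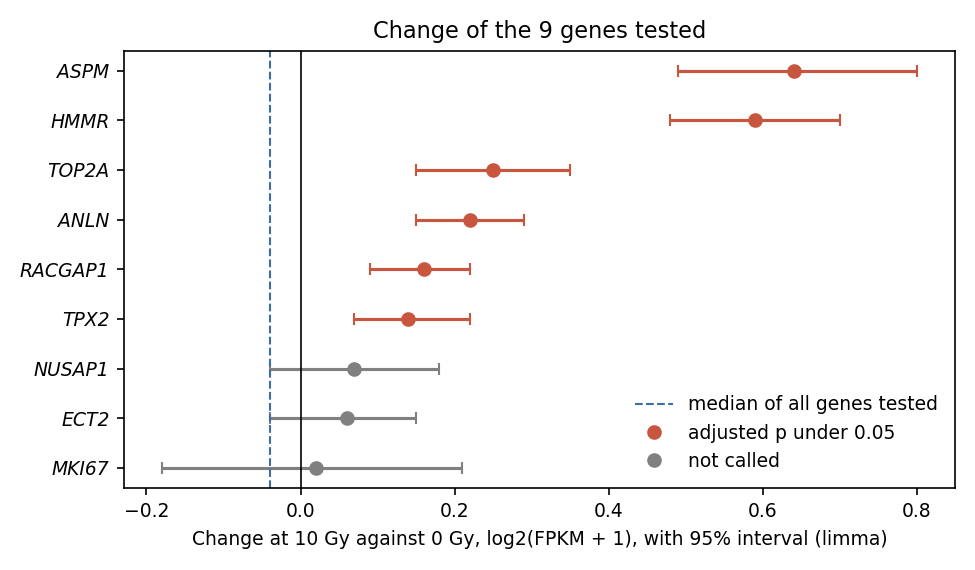
Change at 10 Gy against 0 Gy on the log2(FPKM + 1) scale for the 9 genes tested, with 95% intervals from limma, and a dashed line at the median of all genes tested (-0.04). The intervals of the 6 called genes (red) lie above 0, and those of NUSAP1, ECT2 and MKI67 (grey) include it.

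MKI67 (12807 bases) and ASPM (10887 bases) are the longest of the 10 genes, and gene length moved with the library. In control replicate 1, genes of 10001 bases or more were lower than in the other controls by a median log2 difference of -0.08, while genes of 1001 to 2000 bases were higher by 0.11. MKI67 and ASPM were lower there by -0.30 and -0.25, beyond the median of their length class. Between doses, the median log2 change was 0.05 for genes of 10001 bases or more and -0.13 for those of 1001 to 2000 bases. Without control replicate 1 these medians were 0.02 and -0.10. The shortest class, of up to 1000 bases, stood at -0.004 and did not follow the order of the others. With the length trend of each library removed, the log2 change of ASPM was 0.61 and that of MKI67 was -0.04, while the shorter TPX2 and RACGAP1 were both at 0.22 and NUSAP1 was at 0.15 (adjusted p = 0.0347) and called higher. Without control replicate 1, that of ASPM was 0.56. What moved with gene length in control replicate 1 was not tested.

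**Figure D4:**
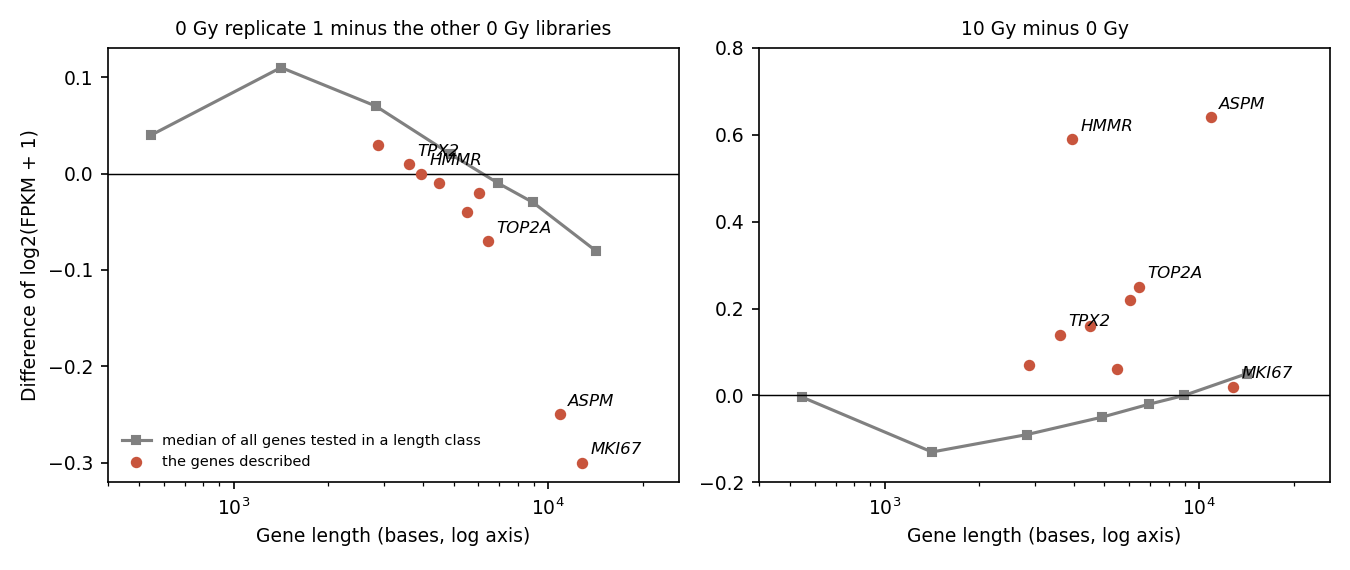
Difference of log2(FPKM + 1) against gene length in bases (log axis), between control replicate 1 and the other 0 Gy libraries (left) and between 10 Gy and 0 Gy (right), with grey squares for the median of each length class and red points for the 9 genes. ASPM and MKI67 lie lowest on the left, at -0.25 and -0.30, while on the right ASPM stands at 0.64 and MKI67 at 0.02.

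The members' median log2 change was 0.16, against -0.04 for all genes tested. The scaling of the libraries moves that median, to 0.08 under TPM scaling and 0.04 under upper quartile scaling, and all genes shift with it. Relative to the median of all genes, the members' median stood between 0.20 and 0.21 under each of the 5 scalings tried. Over the 6 libraries, the mean standardized level of the 9 genes tested was -1.02, -0.39 and -0.74 at 0 Gy and 0.78, 0.64 and 0.73 at 10 Gy. Single members followed this profile to different degrees, with Pearson correlations of 0.99 for ANLN and ASPM and 0.26 for MKI67 over 6 libraries. Each member is itself part of the mean it was compared with, so these correlations are a description only. Among 7254 other genes that averaged 5 FPKM or more, those closest to the profile were CD24 (r = 0.9987), GTF3C1 (0.9981), IQSEC1 (0.9978), FSTL1 (0.9977) and CKAP5 (0.9960). With 2 doses, such correlations over 6 libraries are set largely by the step between doses and are given as a description.

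Other genes of these processes were read in the same fit from 8 lists. The lists were written from general knowledge, but with earlier results of these data known, so their counts are not independent support. Of 10 midzone and centralspindlin partners, 7 were higher and 1 lower, against 11.9% and 23.7% of all genes tested, with a median log2 change of 0.32. Under TPM scaling 8 were higher, against 25.7% of all genes higher. KIF20A, the kinesin that brings the passenger complex to the midzone, went from 46.9 to 50.3 FPKM at 0 Gy to 75.3 to 77.2 FPKM at 10 Gy (log2 change 0.64, adjusted p = 2.57e-04). KIF23, the kinesin that pairs with RACGAP1 in centralspindlin, was the lower one (log2 change -0.10, adjusted p = 0.0444). That call was lost under each other scaling and without any single library, and its sign turned under TPM scaling (0.02). RACGAP1 and KIF23 thus had calls in opposite directions, and the difference between them was not tested.

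The chromosomal passenger complex was mixed. BIRC5 (survivin) rose from 50.5 to 53.3 FPKM at 0 Gy to 63.2 to 65.3 FPKM at 10 Gy, by 0.29 on the log2 scale (adjusted p = 0.00117). Its kinase AURKB fell by 0.22 (adjusted p = 0.00262), with 59.2 to 62.5 FPKM at 0 Gy and 51.7 to 52.0 FPKM at 10 Gy. It was also called lower under each other scaling, with smaller changes of -0.13 under upper quartile and -0.10 under TPM scaling. INCENP (log2 change 0.04, adjusted p = 0.478) and CDCA8 (0.10, adjusted p = 0.0854) were not called, although CDCA8 was called higher under each other scaling and INCENP under TPM scaling and in voom.

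Of 18 contractile ring genes, 2 were higher and 8 lower, with a median log2 change of -0.09 that turned to 0.03 under TPM scaling. There, 5 were higher and 2 lower, and under upper quartile scaling 3 were higher and 3 lower. ACTB fell by 0.35 (adjusted p = 0.00327), and the formin DIAPH3 rose by 0.28 (adjusted p = 0.00171). Of 15 abscission genes tested, 1 was higher and 3 lower (median -0.07, turning to 0.04 under TPM and 0.01 under upper quartile scaling), and under TPM scaling 3 were higher and 2 lower. Over all genes tested, 11.9% were higher and 23.7% lower as deposited, and 25.7% were higher under TPM scaling, and nothing particular to this list is read from its counts. The higher one as deposited was CEP55, the midbody protein that recruits the ESCRT machinery (log2 change 0.26, adjusted p = 0.0017), and the largest fall was that of CHMP2A (-0.30, adjusted p = 0.00458). Of 20 spindle assembly partners tested, 5 were higher and 7 lower (median -0.08, turning to 0.04 under TPM scaling). The balance of these calls turned with the scaling, to 9 higher and 4 lower under TPM, 8 and 5 in voom, and 6 and 5 under upper quartile and median-of-ratios scaling. AURKA, the kinase that TPX2 activates, rose by 0.49 (adjusted p = 3.46e-04), from 91.9 to 95.5 FPKM at 0 Gy to between 130 and 133 FPKM at 10 Gy. The augmin subunit HAUS2 fell by 0.35 (adjusted p = 0.00157).

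A panel of 8 genes often used to score proliferation moved in both directions, with 3 genes higher and 3 lower, against 11.9% and 23.7% of all genes tested. The panel's median was -0.06, turning to 0.06 under TPM, 0.03 under upper quartile scaling and 0.01 in voom. AURKA, BIRC5 and CCNB1 (cyclin B1, log2 change 0.42, adjusted p = 5.93e-04) were higher. RRM2, a ribonucleotide reductase subunit, fell by 0.67 (adjusted p = 2.27e-04), PCNA, the replication clamp, by 0.48 (adjusted p = 7.43e-04) and MCM2, a replicative helicase subunit, by 0.34 (adjusted p = 0.00182). These calls held under each scaling tried. FOXM1 (0.01, adjusted p = 0.783), a transcription factor of late cell cycle genes, and MYBL2 (-0.14, adjusted p = 0.0856) were not called, though FOXM1 was called higher under TPM scaling (0.14). Among 17 regulators of cell cycle genes tested, 1 was higher, the pocket protein RBL2 (0.29, adjusted p = 0.00463), and 8 were lower (median -0.13). Under TPM scaling 2 were higher and 3 lower. Over all 12128 genes tested, 11.9% were higher and 23.7% lower as deposited, and 3113 were higher and 1066 lower under TPM scaling. Among the regulators, 5 were lower without 10 Gy replicate 2. Over all genes tested, 1808 were lower without that library, against 2874 with all libraries. The largest fall was that of CDKN1A, the CDK inhibitor p21 (-0.30, adjusted p = 0.0102), which was not called under TPM scaling (-0.19).

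Of 18 genes of the anaphase-promoting complex, which marks several of these proteins for destruction at mitotic exit, 3 were higher and 7 lower (median -0.05, turning to 0.07 under TPM, 0.03 under upper quartile scaling and 0.01 in voom). Its activator CDC20 rose by 0.31 (adjusted p = 9.63e-04), and ANAPC13 had the largest fall (-0.29, adjusted p = 0.0069), called lower under each scaling tried. CDC26 stood at the same rounded value (-0.29, adjusted p = 0.034), a call kept in voom but lost under the other scalings. Under TPM scaling 5 genes of this list were higher and 1 lower. Without 10 Gy replicate 1 the counts of this list were 1 higher and 2 lower. Over all 12128 genes tested, 875 were higher and 1830 lower without that library, against 1443 and 2874 with all libraries. Counts of lower genes in these lists depend on the scaling. Of all genes tested, 11.9% were higher and 23.7% lower as deposited, and 25.7% were higher under TPM scaling.

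**Figure D5:**
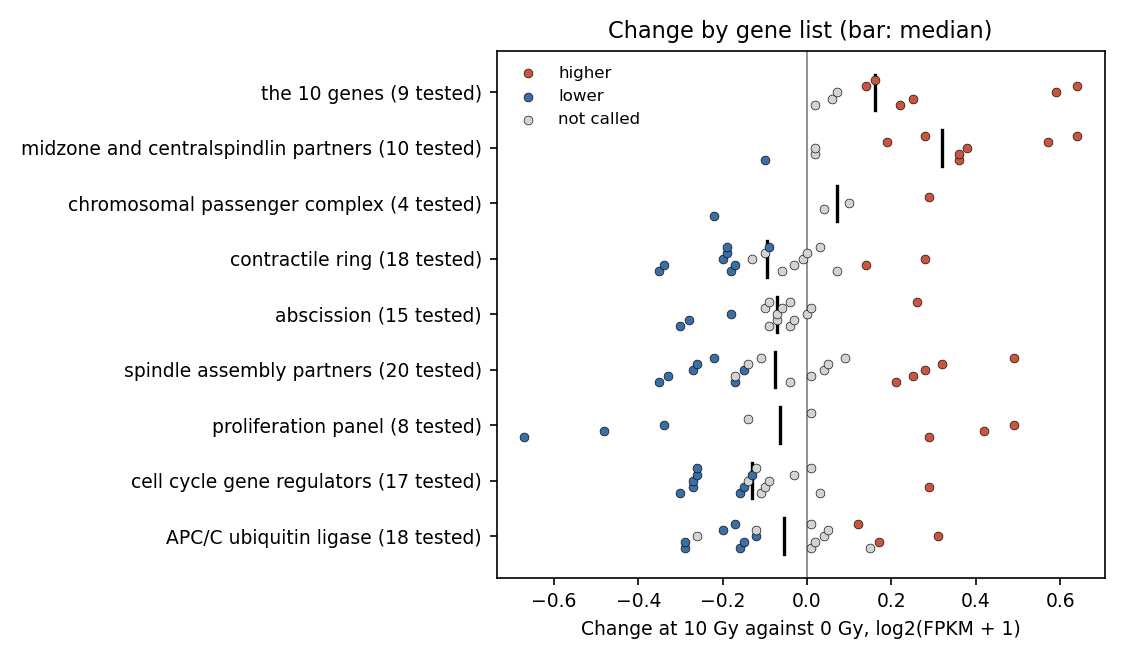
Log2 change of each gene by list, red for called higher, blue for called lower and grey for not called, with a bar at the median of each list. The 9 genes tested and the midzone partners lie mostly to the right, with medians of 0.16 and 0.32, while the other medians lie between -0.13 and 0.07.

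The libraries held 15643641 to 28861781 reads on genes, as recovered from the values, and the summed FPKM was 269611.1 to 278379.8 at 0 Gy and 246920.2 to 254918.4 at 10 Gy. Of the defining markers, VIM (247 to 312 FPKM), CD44 (72.3 to 81.4) and MSN (186 to 211) were high in every library, though lower at 10 Gy, and EGFR was at 26.4 to 31.6 FPKM. ESR1 was at 0.0169 FPKM or less and PGR is listed at 0, while ERBB2 was at 6.76 to 8.08 FPKM. The epithelial markers EPCAM (1.20 to 1.51 FPKM) and CDH1 (0.273 to 0.479) were low. The leukocyte marker PTPRC was at 0.0071 FPKM or less and the fibroblast marker DCN at 0.0026 or less. PECAM1 (1.22 to 1.97) and COL1A1 (2.98 to 4.34) were low and higher at 10 Gy, and their part in the results was not tested.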

How the data were processed

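RNA from MDA-MB-231 was sequenced in 6 libraries, 3 at 0 Gy and 3 at 24 h after 10 Gy, grouped by the sample titles. The unit of the table is FPKM, deposited by the authors as their provider computed it from polyA-selected RNA. The submitters' processing notes name HISAT2 and GRCh38, and the counting program is not given in the sources used here. All 58735 gene identifiers and coordinates matched GENCODE 29, and 27 symbols that read as dates were restored by identifier. FPKM multiplied by gene length gave whole multiples of a step per library for 100% of values above 0, to within 0.01 reads or 1e-06 of the value. These multiples were taken as reads, and depth limits precision most for PRC1 and HMMR.

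Expression was compared with limma 3.58.1 in R 4.3.3 on log2(FPKM + 1), with an intensity trend, over genes averaging 1 FPKM or more. A gene was called when its p, adjusted by Benjamini-Hochberg over all genes tested, was under 0.05. The scale understates changes of low genes. An exact permutation test of 3 libraries against 3 cannot go below 0.1 and was not used.

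Members, lists, tests and alternatives were chosen with earlier results of these data known. All members were named, and from each list the called gene with the largest rise and that with the largest fall, all genes of the passenger complex and of the proliferation panel, and the 5 genes nearest to the members' mean profile. KIF23 is both the largest and the single fall of its list. CDC26, level with ANAPC13 after rounding, was added after its values were seen. Promoters were from RefSeq (GRCh38.p14), whose start sites lie inside the genes as the table draws them for all 8 genes but MKI67. Alternatives covered the pseudocount, the filter, the scaling, the replicate block, each library left out, eBayes with no trend, protein-coding genes alone, voom on the recovered reads and, chosen after seeing the data, removal of each library's length trend. Python 3.11.15 with matplotlib 3.10.9 drew the figures.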

Additional observations from a re-analysis of the deposited data

How the results depend on the processing

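At least 6 members were called higher under each scaling, pseudocount and other setting tried, except that 5 were called with a minimum of 5 FPKM, which drops HMMR, and 5 without 10 Gy replicate 2. No setting called a member lower. On the log2 scale, ASPM ranged from 0.56 to 0.79, HMMR from 0.56 to 0.84, TOP2A from 0.23 to 0.38, ANLN from 0.21 to 0.35, RACGAP1 from 0.14 to 0.29 and TPX2 from 0.13 to 0.27 over the settings that tested them. MKI67 was not called in any setting (adjusted p from 0.102 to 0.988) and its sign turned without 0 Gy replicate 1 (-0.09), without 10 Gy replicate 2 (-0.0022) and with the length trend removed (-0.04). Over the libraries left out in turn it ranged from -0.09 to 0.07. ECT2 was also called in voom (0.14) and NUSAP1 with the length trend removed (0.15). PRC1 had a log2 change of -0.05 (adjusted p = 0.705) with no filter.

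Over all genes, 1443 were higher and 2874 lower, and 33.4% of calls were higher. The share of calls that were higher was 63.9% with upper quartile scaling (2556 higher, 1444 lower), 74.5% with TPM (3113 and 1066), 48.7% with median-of-ratios scaling, 59.1% in voom (2795 higher) and 47.7% with the length trend removed. With no filter 1815 were lower. Without 10 Gy replicate 1 the counts were 875 and 1830, and without 10 Gy replicate 2 they were 852 and 1808. With the replicate block, 1137 were higher and 2366 lower, with the same number of members called (6). Same-numbered libraries deviated from their group means with correlations of -0.04, -0.03 and -0.10, and no library correlated best with its own number. No pairing by number showed in these values, but they cannot exclude it, and the labels do not state any pairing.

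Upper quartile scaling left 0 midzone partners lower, 2 passenger genes higher, and 3 contractile ring, 5 regulator and 1 anaphase-promoting complex gene lower. Over all genes tested, 2556 were higher and 1444 lower under that scaling, against 1443 and 2874 as deposited. With each library left out in turn, the counts ranged from 0 to 0 for midzone partners lower, 1 to 2 for passenger genes higher, 1 to 1 for contractile ring genes higher, 5 to 8 for contractile ring genes lower, 5 to 8 for regulators lower, 1 to 4 for anaphase-promoting complex genes higher and 2 to 6 for those lower. Over all genes tested, the same omissions gave 852 to 1393 genes higher and 1808 to 2630 lower. The causes of these changes were not tested.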
